A study of Mus musculus with 8 samples.

Results

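The 33 genes described here encode the enzymes and transporters that carry glucose to lactate, the pentose phosphate branch, and the oxygen sensors and targets of the hypoxia response. They were taken as a list by gene symbol: every non-control probe of the 8 arrays whose gene name was on the list was kept, and all 33 genes were found, on 85 probes of the 56605 on the array. All 33 passed the filter on dim probes and so belong to the 18605 genes tested. The material was peritoneal macrophages of wt (n = 4 arrays) and Card9-/- mice (n = 4 arrays), the latter lacking the signalling adaptor Card9. Mice of both genotypes had been given zymosan, a yeast cell wall particle, into the peritoneum at 500 mg/kg for 4 h, and no array without zymosan was analysed here, so the response to zymosan was not measured. All mice were also injected with 1 ml of 3% thioglycolate, an irritant that draws cells into the peritoneum, 4 days before collection. The cells of 4 or 5 mice per group were pooled, red cells were lysed, and the cells that adhered within 3 h were kept. Strain, sex and age were not given in the sources used here. The labels do not say that the replicates came from separate pools, so p-values measure the spread between these samples, which may be technical.

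Several arrays stood apart or went against their labels. Between 47.8% and 56.5% of the spots were well above background and 0 were saturated. Wt replicates 1 and 2 correlated at r = 0.985 across genes, whereas their correlations with wt replicates 3 and 4 were 0.822 to 0.895 and with Card9-/- replicate 2 they were 0.949 and 0.963. The Card9 probe was well above background on 3 wt arrays, the exception being replicate 1, and on 0 Card9-/- arrays. The 9 macrophage markers tested had log2 summed levels of 5.73, 5.72, 10.85 and 9.42 on wt replicates 1 to 4 and of 6.72 to 8.18 on the Card9-/- arrays, and 6 of the 9 were well above background on wt replicates 1 and 2 against 8 or 9 elsewhere. Y-linked Ddx3y, Eif2s3y and Uty were well above background on 0 wt and 4 Card9-/- arrays, so genotype and sex cannot be told apart, which touches the X-linked member Pgk1 and every other comparison. The 4 wt arrays and Card9-/- replicate 4 shared slide 1, Card9-/- replicates 1 and 3 were on slide 2 and Card9-/- replicate 2 was on slide 3. In such bulk samples, fewer cells of a type and less RNA per cell cannot be told apart.

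Glycolysis splits glucose into pyruvate, and lactate dehydrogenase then regenerates the cofactor that keeps the pathway running without oxygen, while the pentose phosphate branch yields NADPH for the oxidative burst and ribose for nucleotides. Macrophages that meet microbial particles are known to raise glucose uptake and lactate output, in part through the transcription factor HIF-1α, which prolyl hydroxylases mark for degradation when oxygen is plentiful. Card9 relays signals from Dectin-1, the receptor for the beta-glucan in zymosan, and the study's title places it in zymosan peritonitis and macrophage autophagy.

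Between the genotypes, 0 of the 33 genes passed an adjusted p of 0.05 (limma, Benjamini-Hochberg over all genes tested), where 0.0269% of all genes did. The lowest adjusted p was 0.614, for Pkm. At an unadjusted p under 0.05 there was 1 member, Pkm, lower in Card9-/-, beside 7.23% of all genes (4.59% lower). The exact permutation test of a single gene can give no p below 0.0286 with 4 arrays against 4. The 4 arrays of the genotypes did not overlap for 2 members, Pkm and Ldha, both lower in Card9-/-; 5.22% of all genes did not overlap (3.69% lower). In 25 of the 33 genes the Card9-/- mean was below the wt mean, beside 56.3% of all genes, and the median log2 difference, Card9-/- minus wt, was −0.245 beside −0.088 over all genes. This direction depended on the scaling and on wt replicate 3: with quantile normalization 16 of 33 were lower and the median was 0.006, without wt replicate 3 there were 18 and a median of −0.042, and with limma's array weights, which count discordant arrays less, 13 and 0.318. Scaling to the array median moved the median of all genes to −0.264 and that of the members to −0.421. Within slide 1, which held the 4 wt arrays and 1 Card9-/- array, and with slide as a block, 26 members were lower with a median of −0.635 beside −0.259 over all genes. Slides 2 and 3 held Card9-/- arrays only, so both settings gave the same differences. Here and below, these set Card9-/- replicate 4 alone against the wt arrays and cannot separate slide from genotype. A difference of 1 log2 unit or more was seen for 2 members, Hk1 and Hk2, a size reached by 15.3% of all genes. The standard errors of the 33 differences ran from 0.327 to 1.079 log2 units.

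**Figure D1:**
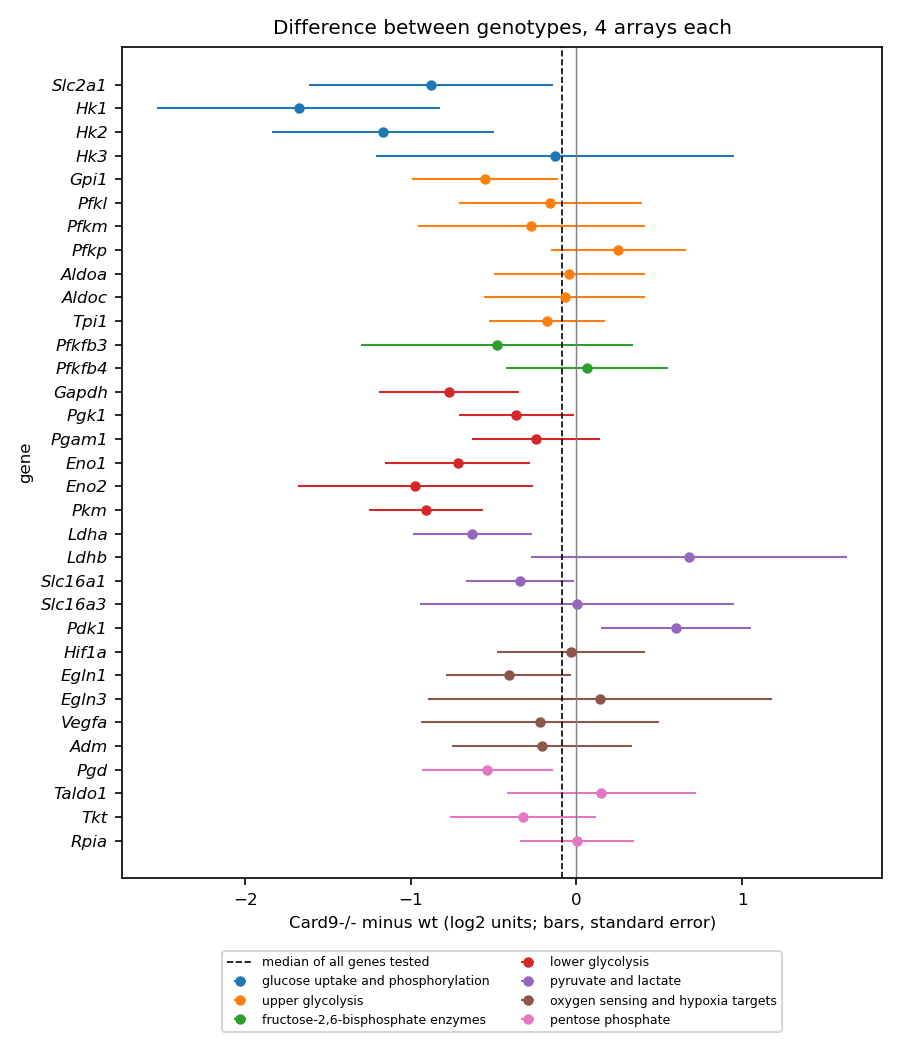
Log2 difference Card9-/- minus wt of each of the 33 genes, coloured by role, with bars for the standard error (4 arrays each); the dashed line is the median of all genes tested, −0.088. The 4 genes of glucose uptake and the 6 of lower glycolysis all lie below 0, though the bars of Hk3 and Pgam1 cross it. The bars of most other genes cross 0 too.

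Levels also varied between the arrays of a genotype. Wt replicate 3 was the highest array for 19 of the 33 genes, beside 27.0% of all genes, and wt replicate 4 for 7, beside 11.1% of all genes. Wt replicate 1 and Card9-/- replicate 4 were the lowest arrays for 11 members each. The share of all genes that were lowest on these arrays was not counted. The median deviation of the members from their own 8-array mean was −0.518, −0.294, 0.979 and 0.353 log2 units on wt replicates 1 to 4, and −0.237, 0.003, 0.193 and −0.589 on Card9-/- replicates 1 to 4. Over all genes the same medians lay between −0.205 and 0.197. The level of a gene here is the log2 signal of its probe minus the log2 75th percentile of the array's spots, and the range of a gene's levels within wt had a median of 1.67 over the members, against 1.13 within Card9-/-. For all genes these medians were 1.49 and 1.33. A range of at least 2 within wt was found for 11 members (33.3%, beside 33.1% of all genes), and within Card9-/- for 3 members (9.09%, beside 26% of all genes).

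A shared pattern, noticed after the values were seen, was that wt replicates 3 and 4 were above all 6 other arrays. It was found for 12 members (36.4%, beside 14.5% of all genes tested): Slc2a1, Hk2, Hk3, Gpi1, Pfkfb3, Gapdh, Eno1, Pkm, Slc16a3, Egln3, Taldo1 and Tkt. For Hk3, Slc16a3, Egln3 and Taldo1, wt replicates 1 and 2 were in addition below all 6 others (12.1% of the members, beside 3.87% of all genes). The macrophage markers, given above, had their highest sums on the same wt replicates 3 and 4. So had the markers of resident peritoneal macrophages. Their log2 sums were 2.31, 2.57, 8.70 and 6.39 on wt replicates 1 to 4 and 3.34 to 4.45 on Card9-/- arrays. The summed levels of other lists had the same order. Mesothelial and fibroblast markers had sums of 4.59 and 4.08 on wt replicates 3 and 4 and at most 3.81 elsewhere. These sums were carried by Dcn, at 3.79 and 3.74 on those arrays. Krt18 and Msln were also highest there, whereas Krt8, Krt19, Col1a1, Col3a1 and Wt1 did not have that order. The mean level over this list was −0.988 on wt replicate 4, below −0.393 on Card9-/- replicate 2. Fat cell markers had sums of 6.60 and 5.04 on wt replicates 3 and 4 and at most 2.80 elsewhere. These were carried by Fabp4, which macrophages also express, at 6.51 and 4.96 on those arrays. Cfd, Retn and Ucp1 were also highest there, and Lep was not. The part of any of these lists in the members' levels was not tested.

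**Figure D2:**
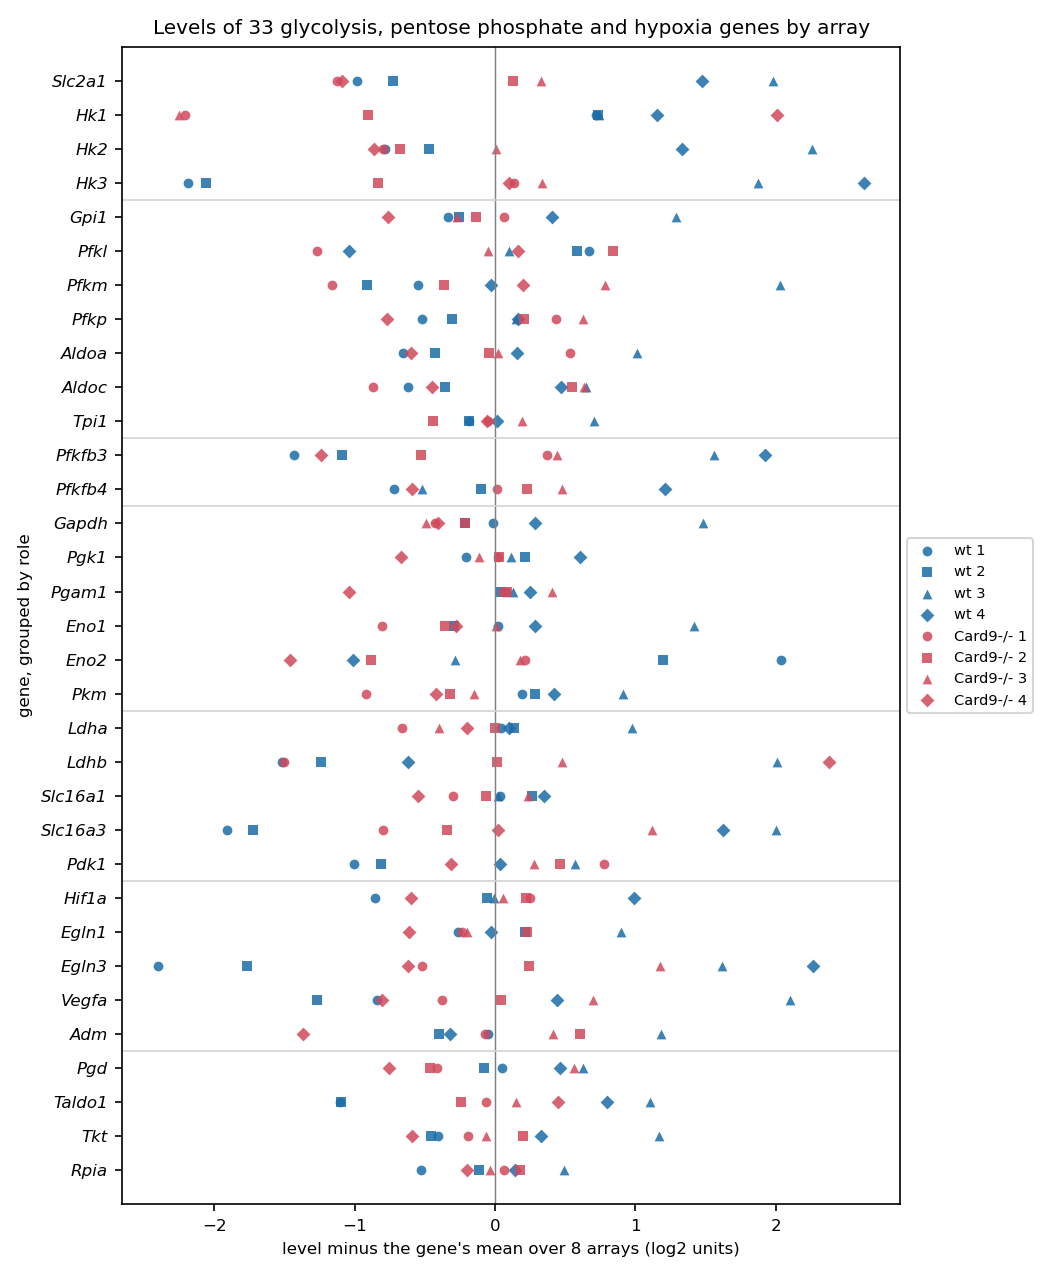
Level of each of the 33 genes on each array, as the log2 difference from that gene's mean over 8 arrays; blue symbols are wt and red symbols Card9-/-, with one shape for each replicate number, and grey lines part the roles. Wt replicate 3 (blue triangles) lies furthest to the right for 19 genes, and wt replicate 1 (blue circles) lies furthest to the left for 11.

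RefSeq promoters (build GRCm38.p6) were available for all 33 members, with 48 annotated starts. HIF-1α binds the core letters ACGTG or GCGTG, and these were searched on both strands in the 250 bases upstream of each start; a match is a description of the letters, not a site. At least 1 match was found for 30 of the 33 genes (90.9%), beside 41.5% of all 27025 genes in the table and 57.4% of the 10985 tested genes that it holds. A gene counted if any of its starts held a match. Counted by start, 38 of the 48 member windows held one (79.2%), beside 38.6% of all 32851. The median GC content of the windows was 59.4% for members, 58.4% for tested genes and 52.4% for all. ACGTG alone was found for 48.5% of members and 18.5% of all genes, GCGTG for 66.7% and 30.9%, and CACGTG, the E-box that contains ACGTG on both strands, for 15.2% and 6.86%. These single-motif shares were not counted for the tested genes, in which matches to either motif were more frequent than in all genes. Below are all 9 members with 1 annotated start that were highest on wt replicates 3 and 4: Slc2a1 (chr4:119108495-119108744, plus strand), Hk2 (chr6:82774455-82774704, minus strand), Hk3 (chr13:55021386-55021635, minus strand), Gpi1 (chr7:34230337-34230586, minus strand), Gapdh (chr6:125165774-125166023, minus strand), Slc16a3 (chr11:120948817-120949066, plus strand), Egln3 (chr12:54203875-54204124, minus strand), Taldo1 (chr7:141391910-141392159, plus strand) and Tkt (chr14:30548881-30549130, plus strand). Both starts of Ldha follow, chosen because its genotypes did not overlap (chr7:46845554-46845803 and chr7:46846832-46847081, plus strand). Each runs 5′ to 3′ on the gene's strand with the matches in capitals; CACGT and CACGC are the same letters read on the other strand.
Slc2a1: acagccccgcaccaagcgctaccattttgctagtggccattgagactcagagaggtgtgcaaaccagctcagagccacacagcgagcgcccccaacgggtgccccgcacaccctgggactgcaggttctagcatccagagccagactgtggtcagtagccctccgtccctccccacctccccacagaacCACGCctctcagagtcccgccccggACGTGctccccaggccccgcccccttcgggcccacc
Hk2: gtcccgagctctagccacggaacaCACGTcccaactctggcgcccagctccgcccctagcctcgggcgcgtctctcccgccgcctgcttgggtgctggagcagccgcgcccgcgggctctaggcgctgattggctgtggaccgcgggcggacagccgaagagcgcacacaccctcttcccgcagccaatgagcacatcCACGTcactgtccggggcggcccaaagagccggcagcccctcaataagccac
Hk3: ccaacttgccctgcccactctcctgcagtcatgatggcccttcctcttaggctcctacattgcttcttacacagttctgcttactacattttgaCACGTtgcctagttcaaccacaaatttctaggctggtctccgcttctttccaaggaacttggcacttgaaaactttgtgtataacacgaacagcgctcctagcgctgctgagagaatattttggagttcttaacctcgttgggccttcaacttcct
Gpi1: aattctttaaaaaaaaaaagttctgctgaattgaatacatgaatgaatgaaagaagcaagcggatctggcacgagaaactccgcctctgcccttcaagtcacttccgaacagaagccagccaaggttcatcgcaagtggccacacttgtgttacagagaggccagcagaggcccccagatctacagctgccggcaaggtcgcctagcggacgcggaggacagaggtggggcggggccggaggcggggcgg
Gapdh: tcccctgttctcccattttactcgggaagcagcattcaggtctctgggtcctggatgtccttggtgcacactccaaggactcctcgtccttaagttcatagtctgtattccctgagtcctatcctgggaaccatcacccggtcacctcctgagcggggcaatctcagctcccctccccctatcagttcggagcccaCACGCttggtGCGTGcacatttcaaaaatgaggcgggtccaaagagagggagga
Slc16a3: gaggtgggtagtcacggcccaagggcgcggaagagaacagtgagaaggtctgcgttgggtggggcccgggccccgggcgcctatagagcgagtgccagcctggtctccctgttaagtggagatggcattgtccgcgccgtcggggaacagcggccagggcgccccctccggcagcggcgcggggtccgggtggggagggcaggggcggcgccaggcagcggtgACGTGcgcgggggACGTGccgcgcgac
Egln3: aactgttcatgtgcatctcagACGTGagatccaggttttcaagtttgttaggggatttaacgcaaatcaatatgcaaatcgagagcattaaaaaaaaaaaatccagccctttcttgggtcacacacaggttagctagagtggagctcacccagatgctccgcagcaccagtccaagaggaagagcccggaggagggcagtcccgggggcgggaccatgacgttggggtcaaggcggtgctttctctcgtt
Taldo1: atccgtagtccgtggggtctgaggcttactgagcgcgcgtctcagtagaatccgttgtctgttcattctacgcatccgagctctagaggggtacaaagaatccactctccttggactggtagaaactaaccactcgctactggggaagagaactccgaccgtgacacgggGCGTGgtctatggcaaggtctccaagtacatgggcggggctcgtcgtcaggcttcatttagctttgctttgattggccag
Tkt: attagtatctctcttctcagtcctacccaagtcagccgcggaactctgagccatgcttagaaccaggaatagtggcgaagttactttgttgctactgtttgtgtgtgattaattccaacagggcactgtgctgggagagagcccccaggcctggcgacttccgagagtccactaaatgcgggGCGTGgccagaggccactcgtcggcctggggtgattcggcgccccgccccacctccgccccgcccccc
Ldha, first start: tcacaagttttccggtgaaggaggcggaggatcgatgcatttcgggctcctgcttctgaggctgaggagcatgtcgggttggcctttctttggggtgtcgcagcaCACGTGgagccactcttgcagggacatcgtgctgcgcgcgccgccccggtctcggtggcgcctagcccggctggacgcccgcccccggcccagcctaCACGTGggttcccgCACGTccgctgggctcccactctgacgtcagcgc
Ldha, second start: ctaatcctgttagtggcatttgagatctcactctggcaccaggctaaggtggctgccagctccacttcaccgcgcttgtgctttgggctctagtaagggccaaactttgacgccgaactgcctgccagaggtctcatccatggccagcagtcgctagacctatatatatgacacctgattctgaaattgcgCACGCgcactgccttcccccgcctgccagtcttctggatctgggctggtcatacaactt
The first start of Ldha held 3 stretches of matches, 2 of them CACGTG, and its second start held 1. Slc2a1, Hk2, Gapdh and Slc16a3 held 2 each, Hk3, Egln3, Taldo1 and Tkt held 1 each, and Gpi1 held 0. Because 30 of all 33 members held a match, a match does not set the genes shown apart from the other members. In Slc16a3, Slc2a1 and Gapdh both matches lie in the part of the window nearest to the start.

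Glucose uptake and phosphorylation: all 4 genes had lower means in Card9-/-, with a median difference of −1.02 and adjusted p-values of 0.737 to 0.992 (limma). Slc2a1 encodes GLUT1, the main glucose transporter of activated macrophages. Its levels on wt replicates 1 to 4 were 1.67, 1.93, 4.63 and 4.13, and on Card9-/- replicates 1 to 4 they were 1.53, 2.78, 2.98 and 1.57. Wt replicates 3 and 4 were the high arrays, and wt replicates 1 and 2 lay within the Card9-/- range. The difference was −0.88 (SE 0.74, n = 4 and 4, exact permutation p = 0.286). Leaving out 1 array it ranged from −1.35 without wt replicate 1 to −0.36 without wt replicate 3, and was −1.52 with the slide block and 0.61 with array weights.

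Hk2, the inducible hexokinase that traps glucose as its phosphate, had wt levels of 1.61, 1.93, 4.66 and 3.73 and Card9-/- levels of 1.60, 1.72, 2.40 and 1.53. Again wt replicates 3 and 4 were high, and the remaining wt arrays overlapped the narrow Card9-/- group. The difference was −1.17, or 2.25-fold lower in Card9-/- (SE 0.67, exact permutation p = 0.2, adjusted p = 0.774). Leaving out 1 array gave from −1.62 without wt replicate 1 to −0.61 without wt replicate 3, and array weights gave −0.051. Hk3, a hexokinase of myeloid cells named after its values were seen, had wt levels of −0.25, −0.12, 3.81 and 4.57 and Card9-/- levels of 2.07, 1.1, 2.27 and 2.04. Its 4 Card9-/- arrays lay between the low and the high wt arrays, and the means differed by −0.13 (SE 1.08). A second Hk3 probe, 523 bases away, also had wt replicates 1 and 2 low and 3 and 4 high, at −2.18, −2.44, 0.81 and 1.97.

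Hk1, the housekeeping hexokinase bound to mitochondria, had the largest difference of the list, −1.68 (SE 0.86, exact permutation p = 0.143, adjusted p = 0.737). Its probe (mm9 chr10:61731230-61731288, minus strand) gave 6.97, 6.98, 6.98 and 7.40 on the wt arrays and 4.03, 5.34, 3.99 and 8.26 on the Card9-/- arrays. Card9-/- replicate 4 was the highest array and the other 3 Card9-/- arrays were the lowest. The 5 arrays at 6.97 or more were the 5 of slide 1, and the 3 low arrays were those of slides 2 and 3. Within slide 1, and with slide as a block, the difference was 1.17 in the opposite direction, resting on Card9-/- replicate 4 alone (slide block, limma, adjusted p = 0.547). Without Card9-/- replicate 4 it was −2.63 (adjusted p = 0.242), and for the mean of the gene's probes it was −0.77. The Hk1 probe 626 bases away gave 2.32, 2.47, 3.80 and 3.87 on wt arrays and 3.04, 2.68, 3.32 and 2.23 on Card9-/- arrays, a difference of −0.30. On it the arrays of slide 1 included both the highest and the lowest of the 8.

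Upper glycolysis held 7 genes, of which 6 had lower means in Card9-/- and 1, Pfkp, a higher one, with differences from −0.55 to 0.25 and a median of −0.158. Gpi1, which turns glucose phosphate into fructose phosphate, had the largest, with wt levels of 6.004, 6.08, 7.63 and 6.75 and Card9-/- levels of 6.41, 6.20, 6.07 and 5.58. Wt replicates 3 and 4 were above all Card9-/- arrays, and wt replicates 1 and 2 were below Card9-/- replicates 1 and 2. The difference was −0.55 (SE 0.44, adjusted p = 0.851). It was 0.006 with quantile normalization, −0.09 in the authors' deposited series matrix, −0.31 for the mean of the gene's probes, −0.22 without wt replicate 3 and −1.04 with the slide block. The phosphofructokinases Pfkl, Pfkm and Pfkp, which commit sugar to glycolysis, differed by −0.16, −0.27 and 0.25, each less than its standard error. The aldolases Aldoa and Aldoc and the isomerase Tpi1 differed by −0.04, −0.07 and −0.18, and adjusted p-values in this group were 0.851 to 0.994.

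Fructose-2,6-bisphosphate is the strongest activator of phosphofructokinase, and 2 members make or remove it. Pfkfb3, the inducible isoform, had wt levels of 2.63, 2.97, 5.62 and 5.99 and Card9-/- levels of 4.43, 3.54, 4.51 and 2.83. The wt arrays fell on either side of the Card9-/- arrays, except that wt replicate 2 was slightly above Card9-/- replicate 4. The difference was −0.48 (SE 0.82, adjusted p = 0.937), ranging when 1 array was left out from −1.04 without wt replicate 1 to 0.083 without wt replicate 4. Pfkfb4 differed by 0.064 (SE 0.488), with a single high array, wt replicate 4 at 3.09.

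Lower glycolysis, from glyceraldehyde phosphate to pyruvate, had lower means in Card9-/- for all 6 genes, with a median of −0.743 and adjusted p-values of 0.614 to 0.93. Pkm, the pyruvate kinase that makes the last ATP of the pathway, had wt levels of 5.98, 6.07, 6.70 and 6.21 and Card9-/- levels of 4.86, 5.46, 5.64 and 5.37. Every wt array was above every Card9-/- array, the closest being wt replicate 1 and Card9-/- replicate 3. The difference was −0.91, or 1.87-fold lower in Card9-/- (SE 0.34, n = 4 and 4, unadjusted limma p = 0.0263, adjusted p = 0.614, exact permutation p = 0.0286). Leaving out 1 array gave −1.01 to −0.75, and the unadjusted p was 0.0533 without wt replicate 3 and 0.0728 without Card9-/- replicate 1.

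The brightest Pkm probe (mm9 chr9:59527118-59527177, plus strand) differed from its neighbour 88 bases away, which gave 5.21, 5.15, 6.14 and 5.38 on wt arrays and 5.56, 4.99, 5.95 and 4.99 on Card9-/- arrays. On that neighbour the genotypes overlapped and the difference was −0.10 (exact permutation p = 0.714). Further Pkm probes, 6718 and 8617 bases away, differed by 0.17 and −0.62. The mean of the gene's probes differed by −0.364, and the brightest probe itself by −0.316 with quantile normalization and by −0.462 in the series matrix. Pkm encodes the M1 and M2 enzymes by alternative exons, and the probes were not assigned to them here.

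Eno2, the enolase best known from neurons, had wt levels of 2.28, 1.44, −0.04 and −0.78 and Card9-/- levels of 0.45, −0.64, 0.42 and −1.22. Here wt replicates 1 and 2 were the high arrays, unlike in the genes above, and wt replicates 3 and 4 lay among the Card9-/- arrays. The difference was −0.97 (SE 0.71, exact permutation p = 0.343). It was −0.45 without wt replicate 1, −0.65 without Card9-/- replicate 4, −1.47 without wt replicate 4 and −1.95 with the slide block. Eno1, the enolase of most cells, differed by −0.72 (SE 0.44, exact permutation p = 0.0857). Gapdh, which couples sugar oxidation to NADH, differed by −0.77 (SE 0.42, exact permutation p = 0.0571), with wt replicate 3 at 8.71 and the 4 Card9-/- arrays between 6.73 and 7.01. All 7 Gapdh probes had lower means in Card9-/-, by −0.82 to −0.19. Pgk1 and Pgam1, the kinase and the mutase that follow Gapdh, differed by −0.36 and −0.25, with SEs of 0.35 and 0.39.

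Of the 5 genes of pyruvate and lactate, 2 had lower and 3 higher means in Card9-/-, with a median of 0.004. Ldha, the dehydrogenase subunit that favours lactate, was read by a probe at mm9 chr7:54110937-54110996 (plus strand). Its wt levels were 7.17, 7.27, 8.11 and 7.23 and its Card9-/- levels 6.47, 7.13, 6.73 and 6.93. All wt arrays were above all Card9-/- arrays, with 7.17 and 7.13 as the closest pair, and wt replicate 3 was apart from the other wt arrays. The difference was −0.63, or 1.55-fold lower in Card9-/- (SE 0.36, adjusted p = 0.773, exact permutation p = 0.0286). It was −0.052 with quantile normalization, −0.146 in the series matrix, −0.35 with array weights and −0.41 without wt replicate 3. A dimmer Ldha probe, 7927 bases away, gave −0.41, and its genotypes overlapped (exact permutation p = 0.371).

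Ldhb, the subunit that favours pyruvate, had wt levels of −1.25, −0.97, 2.28 and −0.35 and Card9-/- levels of −1.24, 0.28, 0.75 and 2.65. Card9-/- replicate 4 and wt replicate 3 were high, and the groups overlapped over nearly their whole range. The difference was 0.68 (SE 0.95, adjusted p = 0.919). Without Card9-/- replicate 4 it was 0.003, without wt replicate 1 it was 0.29, without wt replicate 2 it was 0.38, without wt replicate 3 it was 1.47, without Card9-/- replicate 1 it was 1.3 and with the slide block it was 2.72. Card9-/- replicate 4 was also the highest array on the second probe, at −0.84. The lactate exporter Slc16a3, named after its values were seen, had wt levels of 0.65, 0.83, 4.56 and 4.18 and Card9-/- levels of 1.76, 2.22, 3.68 and 2.57. All Card9-/- arrays lay between the low and the high wt arrays, so that the means differed by 0.004 with an SE of 0.947. Slc16a1, the second monocarboxylate transporter of the list, differed by −0.34 (SE 0.33). Pdk1, which holds pyruvate back from the mitochondria, differed by 0.60 (SE 0.45, adjusted p = 0.838). With array weights it differed by 1.21 (limma, adjusted p = 0.0354), a setting in which 6.29% of all genes passed and whose weights did not converge.

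In the oxygen sensing group 4 of 5 genes had lower means in Card9-/-, with a median of −0.209 and adjusted p-values of 0.866 to 0.996. Hif1a, the oxygen-regulated subunit of the factor, had wt levels of 3.20, 3.99, 4.05 and 5.04 and Card9-/- levels of 4.30, 4.27, 4.11 and 3.46. Wt replicates 1 and 4 were the lowest and highest arrays, and the Card9-/- arrays lay between them. The difference was −0.03 (SE 0.45), and its sign turned under 6 of 20 alternatives. A dimmer probe under the same name, 13854 bases away on the same strand (mm9 chr12:75033965-75034024) and well above background on 3 wt and 4 Card9-/- arrays, gave −2.47, −2.49, −4.57 and −2.97 on wt arrays and −1.04, −1.98, −1.23 and −2.10 on Card9-/- arrays. All Card9-/- arrays were above all wt arrays there, a difference of 1.54 (exact permutation p = 0.0286). It was 1 of 3 member probes of 75 whose genotypes did not overlap, beside 5.1% of all probes tested. Its level on wt replicate 3 was below −4.38, the lowest level that was well above background on that array. Adding the dim genes that the filter removed moved the median difference of all genes from −0.088 to 0.315, also towards Card9-/-. The part of that shift in this probe's difference was not tested. The Hif1a probe on the opposite strand differed by 1.30 with overlap, and both dim probes were lowest on wt replicate 3.

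**Figure D3:**
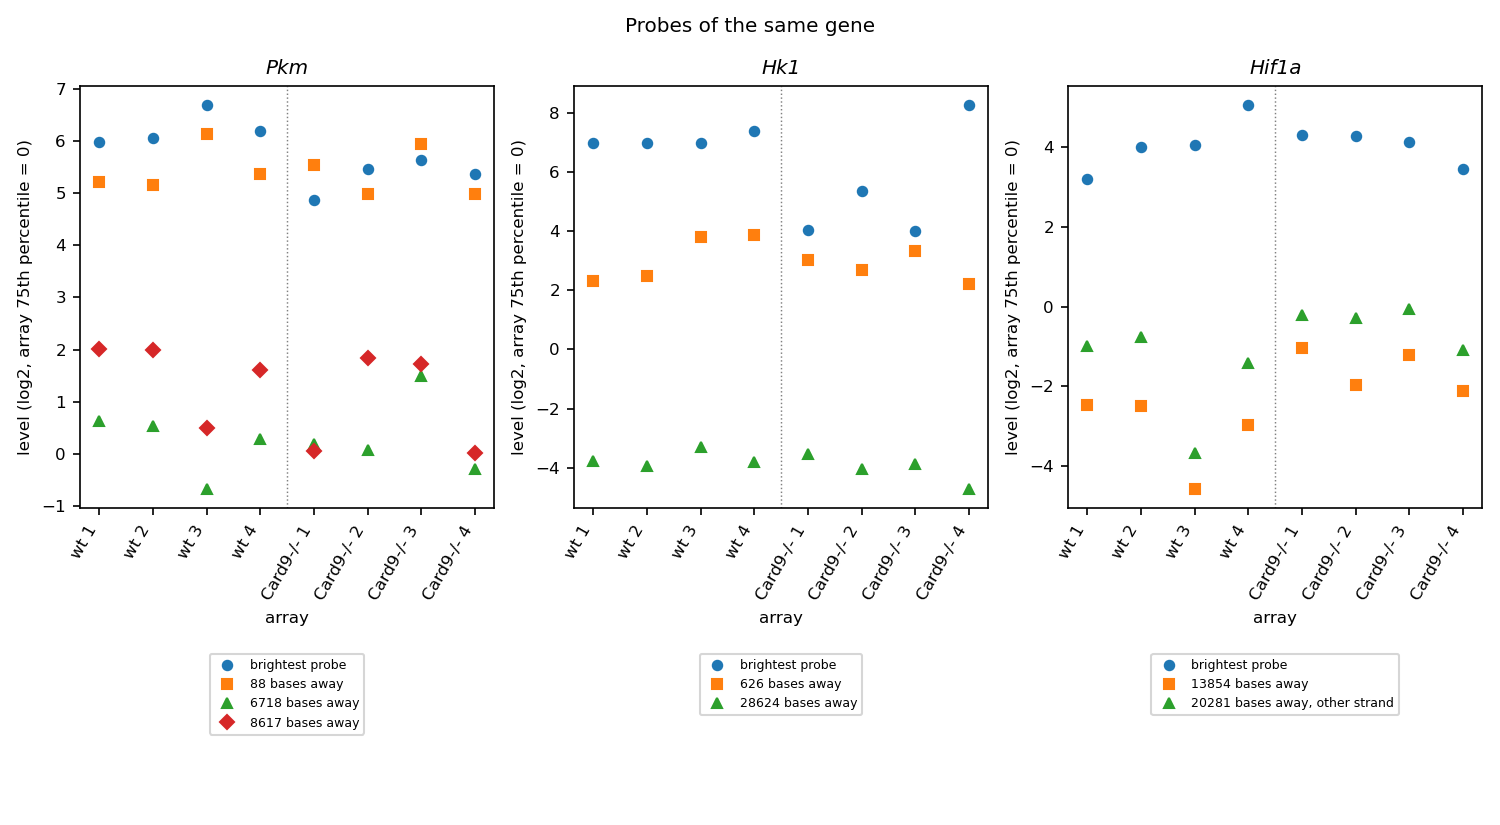
Levels (log2, array 75th percentile as 0) of all tested probes of Pkm, Hk1 and Hif1a on each array, with the brightest probe as blue circles and the others named by their distance from it. The Pkm genotypes are apart on the brightest probe only, Hk1 is high on the 5 arrays of slide 1 on the brightest probe only, and the Hif1a probe 13854 bases away is higher on all Card9-/- arrays.

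Egln1, the prolyl hydroxylase PHD2 that sets the level of HIF-1α, had wt levels of 1.5, 1.98, 2.67 and 1.74 and Card9-/- levels of 1.53, 1.99, 1.57 and 1.15. Only wt replicate 3 stood above the Card9-/- range, and the other wt arrays lay within it. The difference was −0.41 (SE 0.38, adjusted p = 0.866), and it was −0.18 without wt replicate 3, −0.27 with quantile normalization and −0.82 with the slide block. Egln3, the hydroxylase PHD3 and itself a hypoxia target, was not well above background on wt replicate 1. Its wt levels were −4.78, −4.15, −0.76 and −0.11 and its Card9-/- levels −2.90, −2.13, −1.20 and −2.99. As for Slc16a3, all Card9-/- arrays lay between the low and the high wt arrays, and the difference was 0.14 (SE 1.04).

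Vegfa, the vascular growth factor induced by hypoxia, had wt levels of −0.48, −0.91, 2.46 and 0.80 and Card9-/- levels of −0.02, 0.40, 1.06 and −0.45. Wt replicate 3 was the highest and wt replicates 1 and 2 were the lowest arrays. The difference was −0.22 (SE 0.72, adjusted p = 0.974), leaving out 1 array gave −0.68 without wt replicate 2 to 0.44 without wt replicate 3, and the 3 bright Vegfa probes gave −0.24 to −0.17. Adm, the peptide hormone adrenomedullin, differed by −0.21 (SE 0.55), with Card9-/- replicate 4 lowest at 0.34.

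The pentose phosphate branch had 2 lower and 2 higher genes, with a median of −0.158 and adjusted p-values of 0.834 to 0.999. Pgd, the second NADPH-yielding dehydrogenase, had wt levels of 2.84, 2.72, 3.42 and 3.26 and Card9-/- levels of 2.38, 2.33, 3.35 and 2.04. Card9-/- replicate 3 lay within the wt range and the other 3 Card9-/- arrays were below all wt arrays. The difference was −0.54 (SE 0.39, exact permutation p = 0.171), and it was −0.81 without Card9-/- replicate 3, −0.31 with quantile normalization and −1.02 with the slide block. Tkt and Taldo1, which return pentoses to glycolysis, differed by −0.32 and 0.15, and Rpia, the ribose phosphate isomerase, by 0.004. Taldo1 wt levels fell into a low pair at 4.83 and a high pair at 7.04 and 6.73, with the Card9-/- arrays between 5.69 and 6.38.

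**Figure D4:**
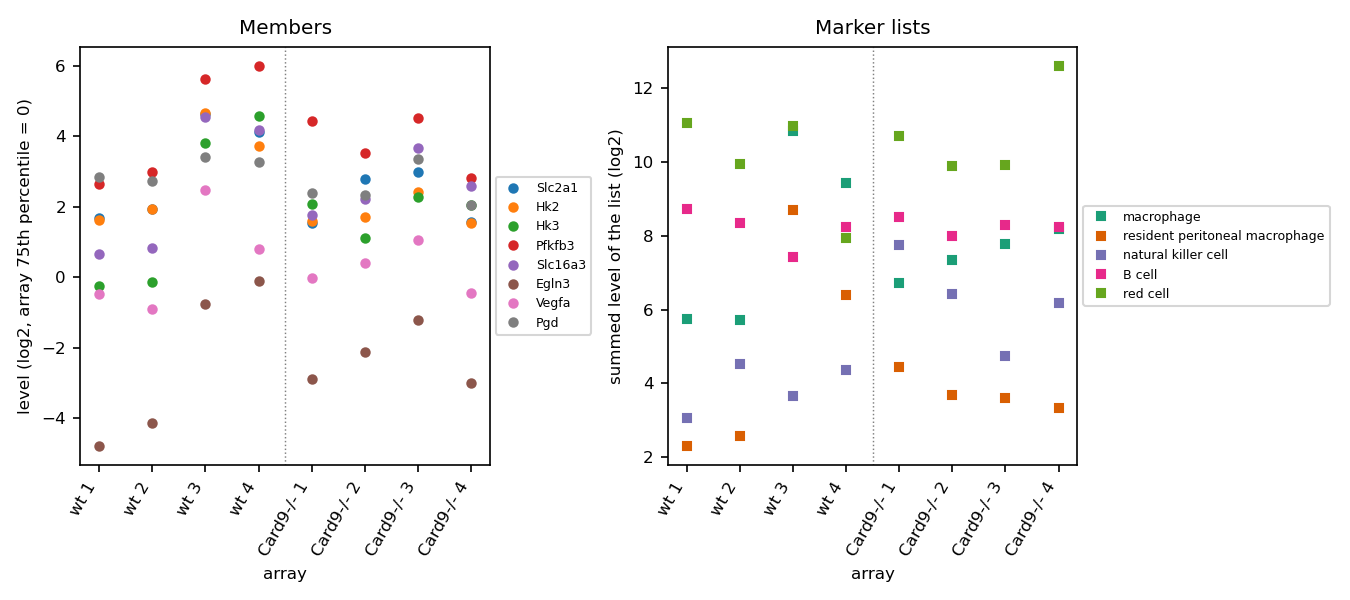
Left, levels (log2, array 75th percentile as 0) of 8 of the 33 genes on each array; right, the log2 summed level of 5 marker lists on the same arrays. Slc2a1, Hk2, Hk3, Pfkfb3, Slc16a3 and Egln3 and both macrophage lists are highest on wt replicates 3 and 4, and the red cell list is highest on Card9-/- replicate 4.

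Other genes of these pathways were taken from 3 further lists. Among 28 other glycolysis genes, 19 could be tested, with 8 higher and 11 lower means, a median of −0.061 and 0 past the adjusted p. At an unadjusted p under 0.05, 2 of them differed (limma): Pfkfb1, a fructose-2,6-bisphosphate enzyme of liver and muscle, by 1.07 (adjusted p = 0.627), and Pgm2, a phosphoglucomutase, by −1.14 (adjusted p = 0.679). Pdhb, a subunit of pyruvate dehydrogenase, followed at −0.84 (adjusted p = 0.701). Among 8 tested of 11 other pentose phosphate genes, 0 passed, the median was −0.088, and Rpe, H6pd and G6pdx differed by −0.68, −0.80 and −0.54. G6pdx, the first and rate-limiting enzyme of the branch, is X-linked.

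Among 25 tested of 30 other hypoxia genes, 0 passed the adjusted p and 0 the unadjusted one (limma), with 9 higher and 16 lower means and a median of −0.179. The genes with the smallest p were Ndrg1 at 1.20 (adjusted p = 0.764), Bnip3l at 1.62 (adjusted p = 0.775) and Hmox1 at 0.67 (adjusted p = 0.786). Bnip3l, a mitophagy receptor, had its highest levels on Card9-/- replicates 4 and 1, at 8.48 and 7.32. Bpgm, which makes the bisphosphoglycerate of red cells and was named after its values were seen, was highest on the same arrays, at 7.36 and 5.85. The red cell markers had log2 sums of 11.05, 9.94, 10.97 and 7.94 on wt arrays and of 10.71, 9.88, 9.92 and 12.61 on Card9-/- arrays. All 7 of those tested had higher means in Card9-/-, and their part in the levels of Bpgm, Bnip3l and Ldhb was not tested.

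Markers of other cells were looked at on the same arrays. Of the 12 T cell markers all had higher means in Card9-/-, and 10 had an unadjusted p under 0.05 (limma). Their log2 sums were 5.93 to 6.97 on wt and 6.65 to 7.56 on Card9-/- arrays, carried largely by Cd2, which differed by 0.094. The genotypes did not overlap for 7 of the 12, beside 5.22% of all genes. The mean level over the list was 0.78 to 1.20 on wt and 1.89 to 3.13 on Card9-/- arrays. All 9 natural killer cell markers tested were higher, with sums of 3.05 to 4.51 on wt and 4.75 to 7.74 on Card9-/- arrays, which did not overlap. B cell marker sums were 7.42 to 8.73 and 7.98 to 8.52, and neutrophil sums 7.27 to 9.38 and 6.61 to 9.77. Of 9 fat cell markers 5 were tested, and Adipoq, Plin1, Cidea and Pck1 did not pass the filter. Their log2 sums were −0.25, 0.22, 6.60 and 5.04 on wt replicates 1 to 4, with a Card9-/- range of 0.40 to 2.80, and were carried by Fabp4, which macrophages also express, at −2.96, −1.35, 6.51 and 4.96 on wt arrays. Lep did not have that order, at −1.57, −2.03, −1.96 and −2.90. Ucp1, the uncoupling protein of brown fat, was at −2.06, −1.36, 2.34 and 0.32 on wt arrays and well above background on 0 Card9-/- arrays, at least 11.7-fold higher in wt (limma, adjusted p = 0.223). For mesothelial cells and fibroblasts the sums were 1.28 to 4.59 on wt and 1.98 to 3.81 on Card9-/- arrays, for muscle 0.85 to 2.21 and 1.35 to 2.73, and for heat shock and handling stress genes 6.66 to 7.66 and 6.05 to 7.04. Among the markers of these lists 0 passed the adjusted p, all lists held markers well above background on every array, and the part of these cells in the members' differences was not tested.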

How the data were processed

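Total RNA of 8 samples (0.2 µg each) was labelled with Cy3 and hybridised to 1-colour Agilent arrays. Per the file headers, the authors deposited background-subtracted spot intensity values from Agilent Feature Extraction 10.7.1.1, with probe coordinates of mouse build mm9. The deposited series matrix holds log2 values of unstated normalization. Its columns (each with a median of 4.48) correlated at r of 1 with quantile-normalized scanner values. Direction therefore matches, but a correlation does not show scale or centring. The series matrix was used as an alternative only, and it is not independent of the quantile normalization setting. Its columns matched an array of their own genotype in 8 of 8 cases but their own replicate in 2 of 8, so replicate numbers follow the scanner files. Its last 7075 rows carried the next identifier's values and were left out.

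From the intensity values the level was computed as log2 signal minus the array's log2 75th percentile. Control and outlier-flagged spots were left out, a probe was kept if the scanner marked it well above background on 3 or more of a genotype's 4 arrays, and the brightest probe stood for its gene. Limma 3.58.1 (R 4.3.3) was fitted to 18605 genes with genotype as the only term and p-values adjusted by Benjamini-Hochberg; the scripts were checked on simulated data. For single genes, all 70 assignments of arrays to genotypes were enumerated (exact permutation, two-sided). The number of arrays limits the precision.

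The members and lists were chosen with earlier results of these data known. Values on every array are given for members past an adjusted p of 0.05 or without overlap, for the member with the smallest p and with the largest difference in each of 7 roles, and for Slc2a1, Hk2, Pfkfb3, Ldha, Hif1a, Vegfa and Pgd. Of the other pathway genes, the 3 with the smallest p in each list are named. Promoters came from RefSeq (GRCm38.p6) and no coordinates were converted. Alternatives were other scalings, background corrections, filters and probe rules, slide and replicate blocks, array weights, averaging wt replicates 1 and 2, and leaving out each array.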

Additional observations from a re-analysis of the deposited data

Results flagged for a closer look

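Hk1 on wt replicate 4 was at 7.40, apart from the other wt arrays, which lay between 6.97 and 6.98. Ldha on wt replicate 3 was at 8.11, apart from the other wt arrays at 7.17 to 7.27. These were 2 of the 66 groups of 4 member levels in which a lone high or low array was looked for by Dixon's test (3.03%), beside 5.71% of such groups over all genes. Chance gives about 1 in 20.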

How the results depend on the processing

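Over 20 alternatives the count of members past the adjusted p was 0 in all but array weights. That setting gave 2 of the 33 (Hk1 at −2.04, limma adjusted p = 0.0399, and Pdk1), beside 6.29% of all genes. Its weights stopped before converging and ranged from 0.177 for wt replicate 3 to 10.1 for wt replicate 2. It called 1171 genes against 5 in the main setting. Genes called fell to 0 with the filter on all 8 arrays and with slide as a block. They fell to 3 with the replicate block, under which the count of members at an unadjusted p went from 1 to 0. Deviations from the genotype means correlated at −0.281 to 0.254 between same-numbered samples. The labels do not say whether the numbers pair the samples, and these correlations cannot decide it.

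Members at an unadjusted p under 0.05, with the share of all genes under the same setting, numbered 2 with median scaling (8.24%), the slide block (8.92%) or wt replicates 1 and 2 averaged (6.36%), 4 with normexp (9.22%), 11 with array weights (30%), 0 with quantile normalization (7.01%), mean of probes (7.34%), the series matrix (6.93%) or within slide 1 (8.8%), and 0 to 2 leaving out each array (5.08% to 10.3%). Members without overlap numbered 0 with quantile normalization (4.67%) or mean of probes (5.22%), 1 in the series matrix (4.55%) and 17 within slide 1 (49.9%, 1 Card9-/- array). They numbered 3 with median scaling (6.87%), normexp (6.35%) or wt replicates 1 and 2 averaged (6.79%). Leaving out each array gave 2 to 4 members, beside 6.08% to 12% of all genes. The median member difference ran from −0.635 with the slide block to 0.318 with array weights, and from −0.501 to −0.042 leaving out each array. The slide block and the setting within slide 1 gave the same differences, both resting on Card9-/- replicate 4 alone.

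Signs turned for Hk1 with the slide block and within slide 1 (1.17 each) and for Gpi1 with quantile normalization (0.006). With array weights they turned for Slc2a1 (0.61), Gpi1 (0.045), Pfkfb3 (0.89), Hif1a (0.32) and Vegfa (1.21). Hif1a gave 0.33 with quantile normalization, 0.93 with mean of probes, 0.28 in the series matrix, and from −0.325 to 0.29 leaving out each array (above 0 without wt replicate 4 or Card9-/- replicate 4, where it was 0.16). Pfkfb3 ran from −1.037 to 0.083 (without wt replicate 4), and Vegfa from −0.680 to 0.44 (without wt replicate 3; 0.011 without Card9-/- replicate 4). Hk2, Eno2, Pkm, Ldha, Ldhb, Egln1 and Pgd kept their sign in all 20, but came as near to 0 as −0.051 (Hk2, array weights), −0.052 (Ldha, quantile normalization), 0.003 (Ldhb, without Card9-/- replicate 4) and −0.139 (Egln1, array weights). The cause was not tested.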
